A study of Mus musculus with 12 samples.

Results

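The p53 pathway genes described here were 36 member genes, p53 itself, its feedback regulators and direct transcriptional targets of p53, of the 20661 genes counted in each library. The list was drawn up by name and role, with earlier results of these data known. ARF is a product of the *Cdkn2a* locus that holds the ubiquitin ligase MDM2 away from p53. When ARF is present, p53 is stabilised and switches on genes that halt the cell cycle, favour cell death, repair DNA and adjust metabolism, and one of those genes is *Mdm2*, which closes a feedback loop. Mouse embryonic fibroblasts (MEFs) are a standard setting for this pathway, because growth in culture raises ARF and slows their division.

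RNA and ribosome footprints were counted in 3 conditions with 2 replicates each, which gave 12 libraries. The conditions were wild type MEFs with a scrambled short hairpin RNA (WT-shSCR), wild type MEFs with a hairpin against ARF (WT-shARF) and *Arf*-/- MEFs with the scrambled hairpin (*Arf*-/--shSCR). All cells were at passage 4 and had been transduced with lentivirus, and the study's methods name a puromycin selection for the hairpin vector. Per the labels, WT MEFs were C57BL/6J and *Arf*-/- MEFs were B6.129X1-Cdkn2atm1Cjs/KaiJ, in which a neo cassette replaces exon 1β of *Cdkn2a* and leaves INK4A, the other product of the locus. The study's methods give another background, B6129SF2/J, for the WT MEFs, so strain and *Arf* genotype cannot be told apart. The sources used here do not say whether replicates were separate embryos or cultures, and p-values then measure only the spread between these libraries.

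The *Cdkn2a* counts, in RNA and in footprints, were higher under the hairpin label. *Cdkn2a* RNA was 44.8 and 41.9 CPM (read counts normalised to library size with TMM factors) in the 2 WT-shSCR replicates, 643.7 and 668.2 CPM in libraries labelled WT-shARF and 27.7 and 32.2 CPM in *Arf*-/--shSCR MEFs. *Cdkn2a* footprints were 93.4 and 66.2, 533.2 and 740.6, and 39.6 and 34.4 CPM in the same order, and the log2 fold change under the WT-shARF label was 3.91 in RNA and 2.99 in footprints (edgeR adjusted p = 5.57e-18 and 3.49e-17). The study also examined ARF protein in these MEFs by immunoblot, to show its knockdown and knockout, which is not analysed here. Counts per gene do not separate ARF from INK4A, and the study states, from earlier work, that this hairpin leaves INK4A expression unchanged. Every direction given below for the libraries labelled WT-shARF rests on that label. RNAseq libraries held 1578627 to 3989908 reads on genes and ribosome profiling libraries 2544319 to 5157572. All 16 fibroblast markers had reads in every group, and their summed RNA was 24858.9 to 28702.9 CPM in WT-shSCR, 26466.8 to 26792.0 CPM in libraries labelled WT-shARF and 18938.7 to 20374.0 CPM in *Arf*-/--shSCR MEFs. After knockout 2 of 15 tested were called lower and 3 higher in RNA, and 5 of 16 lower and 5 higher in footprints. The summed RNA of 16 macrophage markers was 766.9 to 795.9 CPM in WT-shSCR, 298.5 to 383.2 CPM in libraries labelled WT-shARF and 73.2 to 122.0 CPM in *Arf*-/--shSCR MEFs, with no marker at 0 in any group. Of these markers, 14 of 16 tested were called lower after knockout and 7 of 16 in libraries labelled WT-shARF. The summed RNA of 10 epithelial or mesothelial markers was 99.8 to 101.3, 65.4 to 78 and 173.7 to 191.5 CPM in the same order, and the summed RNA of 20 proliferation genes was 1584.4 to 1716.4, 3346.1 to 3367.2 and 3434.4 to 3768.2 CPM. Endothelial, skeletal muscle and neural markers had 2 or 3 testable members in each RNA comparison, none called after knockout, and 2 of 2 skeletal muscle markers were called lower in RNA of the libraries labelled WT-shARF. The part of these lists in the results below was not tested, and in bulk libraries fewer cells of a type and less RNA per cell cannot be told apart.

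p53 binds DNA through a pair of decamers, each called a half-site. Promoter sequence, 250 bases before the transcription start, was found in RefSeq (GRCm38.p6) for 28 of the 36 members. Where RefSeq held several starts for a gene, a match before any of them counted. The shares below are not adjusted for the number of starts. The RefSeq start can also lie inside the annotated gene, as it does for the matches in *Rps27l* and *Sesn1*. It was not found for *Zmat3*, *Pmaip1*, *Tnfrsf10b*, *Perp*, *Trp53inp1*, *Xpc*, *Ddb2* and *Rrm2b*. An exact match to the p53 half-site consensus on either strand was present in 12 of the 28 promoters (42.9%), against 7.28% of 15609 promoters of the genes in the files. A full site was present in 5 of 28 (17.9%), against 3.63%. It was defined as a pair of half-sites with at most 2 mismatches in all and a spacer of at most 13 bases. No mismatch was allowed at the fixed C and G of each half-site. The sequences below are shown for p53 and its feedback regulators with a match and for the other matched members that were called against WT-shSCR, 5′ to 3′ on the gene's own strand, with the matched half-sites in capitals.
Ccng1: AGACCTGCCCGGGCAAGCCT
Rps27l: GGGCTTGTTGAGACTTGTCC
Bax: AGGCAAGCTTtGAACTTGCGG
Ckap2: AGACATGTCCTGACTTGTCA
Mdm2: gatagGAACTTGCCTagcga
Polk: agcttGAACTAGCCTcaaac
Ppm1d: ggggcGAGCTTGCTCttctt
Trp53: cggaaGGACTTGCCCttact
The *Ccng1* site lies at chr11:40755462-40755481 on the minus strand and the *Rps27l* site at chr9:66946296-66946315 on the plus strand, each a full site with 1 mismatch. The *Bax* site (chr7:45467079-45467099, minus strand) and the *Ckap2* site (chr8:22186003-22186022, minus strand) are full sites with 2 mismatches, and *Ccng1*, *Rps27l*, *Bax* and *Ckap2* each hold further full-site matches that overlap the one shown. *Sesn1* (full sites) and *Aen*, *Ei24* and *Siva1* (half-sites) also held matches. The other 4 are single half-sites with their flanks, at chr10:117710930-117710949 on the minus strand for *Mdm2*, chr13:96519404-96519423 on the minus strand for *Polk*, chr11:85311117-85311136 on the plus strand for *Ppm1d* and chr11:69580279-69580298 on the plus strand for *Trp53*. The matched *Mdm2* decamer starts 186 bases before the transcription start given by RefSeq. Of the 12 members with a half-site, RNA of 4 and footprints of 3 were called lower after knockout, and of the 16 without one in the window, 6 and 9. Of the 8 members with no promoter sequence, 1 and 4 were called lower. Over all genes tested, 3.99% were called lower in RNA and 8.95% in footprints. The difference between these sets of members was not tested. Matches are letters in a window and say nothing of whether p53 was bound there.

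Most of the p53 pathway genes that changed after knockout of *Arf* fell, in RNA and in ribosome footprints. RNA of 11 of 34 members tested was called lower and RNA of 1 higher, where 3.99% and 3.94% of all 10659 genes tested were called in those directions (edgeR, adjusted p under 0.05). Footprints of 16 of 35 members were called lower and those of 1 higher, against 8.95% and 9.57% of 10737 genes. Largest among the called falls of RNA were those of *Dcxr* (log2 fold change -1.69), *Ak1* (-1.42) and *Psrc1* (-1.35), and among those of footprints *Perp* (-2.86), *Trp53inp1* (-1.82) and *Pmaip1* (-1.81). Both knockout replicates lay below both controls for 20 members in RNA and above them for 4 (26.2% and 25.3% of all genes tested), and for 27 and 4 in footprints (29.8% and 27.5%). The median log2 fold change of members was -0.49 in RNA and -0.69 in footprints, where the median over all genes tested was -0.004 and -0.001.

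Fewer members were called lower in libraries labelled WT-shARF. RNA of 7 of 35 members was called lower and RNA of 1 higher, against 4.17% and 3.11% of 10503 genes. Footprints of 9 of 35 members were called lower and those of 1 higher, against 5.5% and 5.63% of 10307 genes. Both replicates lay below both controls for 18 members in RNA and above them for 3 (24.7% and 24.9% of all genes tested), and for 18 and 5 in footprints (26.1% and 25.4%). The median log2 fold change was -0.33 in RNA and -0.29 in footprints. WT-shSCR libraries were shared by both comparisons, so the overlap of their calls is not given as a result, and the size of the fall was compared in a fit of *Arf*-/--shSCR against the libraries labelled WT-shARF, described after the members.

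**Figure D1:**
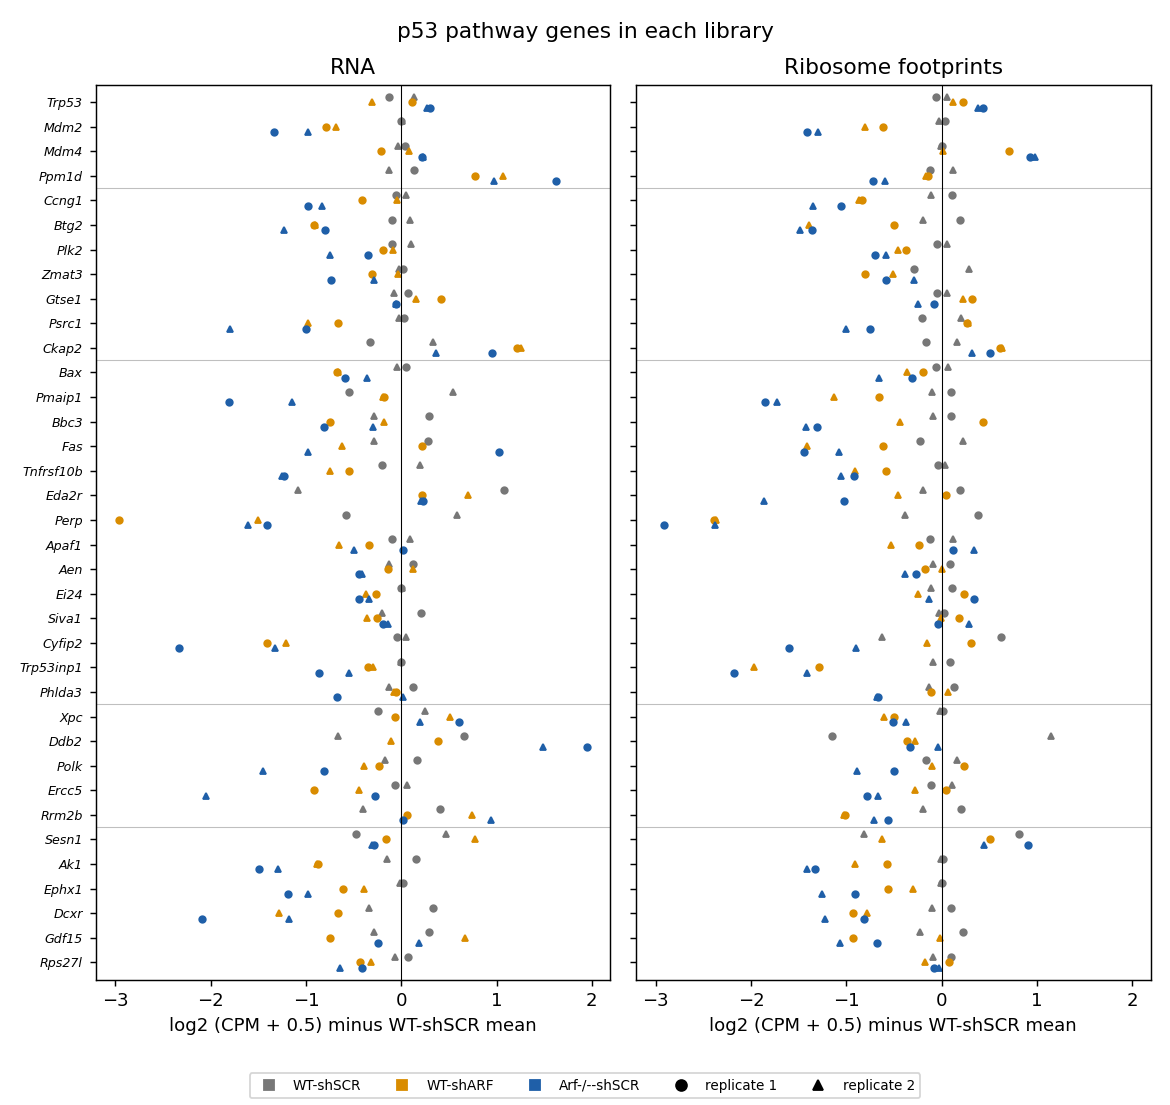
Level of each of the 36 p53 pathway genes in each library, as log2 (CPM + 0.5) minus the mean of the 2 WT-shSCR replicates, with RNA on the left and ribosome footprints on the right. Circles and triangles are replicates 1 and 2, and lines separate the roles (from the top: p53 and its feedback regulators, cell cycle, cell death, DNA repair and nucleotide supply, metabolism and stress). Mdm2, Ak1 and Ephx1 lie left of 0 in both groups and both assays, with the Arf-/--shSCR points furthest left, while Trp53 footprints of both groups lie right of 0.

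Among p53 and its feedback regulators, the changes ran in different directions. *Trp53* encodes p53 and lies on the plus strand of chromosome 11 of GRCm38 from 69580359 to 69591873. *Trp53* RNA was 91.9 and 110.3 CPM in WT-shSCR, 108.8 and 81.3 CPM in libraries labelled WT-shARF and 124.2 and 121.5 CPM in *Arf*-/--shSCR MEFs. Both knockout replicates were above both controls, but the log2 fold change of 0.29 (standard error 0.18) did not pass the test (edgeR adjusted p = 0.368, ± standing for the standard error from here on). *Trp53* footprints were 224.2 and 242.0, 272.8 and 253.8, and 314.9 and 304.5 CPM in the same order, and rose after knockout, with a log2 fold change of 0.42 (± 0.11, edgeR adjusted p = 0.00396). In libraries labelled WT-shARF the footprint change was 0.18 (± 0.10, edgeR adjusted p = 0.319). The annotation holds a pseudogene named after *Trp53* and one named after *Mdm4*, so short reads of these genes may be shared with a copy.

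*Mdm2*, the ubiquitin ligase that marks p53 for degradation and is itself a p53 target, spans 117688875 to 117710758 of chromosome 10 on its minus strand. *Mdm2* RNA was 109.2 and 110.3 CPM in WT-shSCR, 63.2 and 68.2 CPM in libraries labelled WT-shARF and 43.3 and 55.4 CPM in *Arf*-/--shSCR MEFs. *Mdm2* footprints were 223.9 and 214.0, 142.9 and 125.3, and 81.8 and 88.5 CPM in the same order. The groups did not overlap in either assay, and the knockout was lowest. After knockout the log2 fold change was -1.16 in RNA (± 0.20, edgeR adjusted p = 0.00111) and -1.35 in footprints (± 0.13, edgeR adjusted p = 1.56e-09). With the WT-shARF label the change was -0.74 in RNA (± 0.18, edgeR adjusted p = 0.00743) and -0.71 in footprints (± 0.12, edgeR adjusted p = 6.72e-05).

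*Ppm1d* encodes WIP1, a phosphatase that removes activating phosphates from p53, and was the one member whose RNA was called higher after knockout. *Ppm1d* RNA was 9.41 and 7.74 CPM in WT-shSCR, 15 and 18.5 CPM in libraries labelled WT-shARF and 27.3 and 17.2 CPM in *Arf*-/--shSCR MEFs, and neither group overlapped the controls. The knockout log2 fold change was 1.35 (± 0.39, edgeR adjusted p = 0.0356). The call was lost with DESeq2, without either WT-shSCR RNA replicate and without *Arf*-/--shSCR RNA replicate 1. *Ppm1d* footprints were 18 and 21.3 CPM in WT-shSCR and 11.7 and 12.8 CPM in *Arf*-/--shSCR MEFs, a change on the log2 scale of -0.67 (± 0.33, edgeR adjusted p = 0.175) with the sign opposite to that of the RNA. *Mdm4*, an inhibitory relative of MDM2, had 9.11 to 12.5 CPM of RNA and 5.52 to 11.4 CPM of footprints over all libraries, and its footprint change after knockout of 1.02 (standard error 0.46) did not pass the test (edgeR adjusted p = 0.126).

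In the cell cycle group of 7 genes, 4 were called lower after knockout in RNA and 4 in footprints, against 3.99% and 8.95% of all genes tested. In both assays these were *Ccng1*, *Btg2*, *Plk2* and *Psrc1*. *Ccng1* encodes cyclin G1, a p53 target that acts back on MDM2. *Ccng1* RNA was 243.6 and 262.5 CPM in WT-shSCR, 190.3 and 244.4 CPM in libraries labelled WT-shARF and 128.2 and 141.7 CPM in *Arf*-/--shSCR MEFs. *Ccng1* footprints were 253.7 and 216.8, 131.0 and 128.6, and 112.4 and 91.6 CPM in the same order. The knockout was lowest in both assays, while the libraries labelled WT-shARF were close to the control in RNA and close to the knockout in footprints. The log2 fold change after knockout was -0.91 in RNA (± 0.16, edgeR adjusted p = 0.000891) and -1.19 in footprints (± 0.13, edgeR adjusted p = 3.04e-08). For libraries labelled WT-shARF it was -0.21 in RNA (edgeR adjusted p = 0.434) and -0.86 in footprints (± 0.12, edgeR adjusted p = 3.55e-06).

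*Btg2* encodes an antiproliferative protein that recruits the deadenylation machinery to mRNAs. *Btg2* RNA was 37.3 and 42.6 CPM in WT-shSCR, 20.9 and 21.1 CPM in libraries labelled WT-shARF and 22.6 and 16.7 CPM in *Arf*-/--shSCR MEFs. *Btg2* footprints were 56.4 and 43, 34.6 and 18.4, and 18.9 and 17.2 CPM in the same order. Both groups lay below the controls in both assays, and they overlapped each other in RNA and footprints. The RNA log2 fold changes were -1.01 after knockout (± 0.28, edgeR adjusted p = 0.0307) and -0.92 in libraries labelled WT-shARF (± 0.25, edgeR adjusted p = 0.0232). DESeq2 called neither of these RNA changes. The footprint log2 fold changes were -1.45 (± 0.23, edgeR adjusted p = 1.81e-05) and -0.95 (± 0.26, edgeR adjusted p = 0.0129).

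*Plk2*, a polo-like kinase, was among the most abundant members. *Plk2* RNA was 412.3 and 472.8 CPM in WT-shSCR, 387.0 and 416.8 CPM in libraries labelled WT-shARF and 346.2 and 263.2 CPM in *Arf*-/--shSCR MEFs, and *Plk2* footprints were 369.1 and 397.7, 295.5 and 278.8, and 236.4 and 256.2 CPM. The falls were modest, with knockout log2 fold changes of -0.54 in RNA (± 0.16, edgeR adjusted p = 0.0445) and -0.63 in footprints (± 0.10, edgeR adjusted p = 2.52e-05). Footprints in libraries labelled WT-shARF changed by -0.42 (± 0.09, edgeR adjusted p = 0.00277) and RNA by -0.14 (edgeR adjusted p = 0.607).

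*Psrc1*, which encodes a microtubule protein of the mitotic spindle, differed between the assays. *Psrc1* RNA was 65.1 and 62.6 CPM in WT-shSCR, 40.2 and 32.1 CPM in libraries labelled WT-shARF and 31.7 and 18 CPM in *Arf*-/--shSCR MEFs. *Psrc1* footprints were 23.9 and 31.9, 33.2 and 33.6, and 16.2 and 13.5 CPM in the same order, so the libraries labelled WT-shARF were lower than the controls in RNA and not in footprints. RNA fell with a log2 fold change of -1.35 after knockout (± 0.26, edgeR adjusted p = 0.00251) and -0.85 in libraries labelled WT-shARF (± 0.21, edgeR adjusted p = 0.0101). The RNA call under the WT-shARF label was lost with DESeq2. Footprints fell after knockout by -0.89 (± 0.29, edgeR adjusted p = 0.0297) and changed by 0.27 in libraries labelled WT-shARF (± 0.25, edgeR adjusted p = 0.596). The footprint call after knockout was lost with DESeq2 and when any 1 of the 4 libraries was left out.

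*Ckap2*, another spindle gene that is high in dividing cells, went the other way. *Ckap2* RNA was 32 and 51 CPM in WT-shSCR, 94.3 and 97.2 CPM in libraries labelled WT-shARF and 78.6 and 52 CPM in *Arf*-/--shSCR MEFs. *Ckap2* RNA in libraries labelled WT-shARF rose with a log2 fold change of 1.24 (± 0.21, edgeR adjusted p = 0.000204) and footprints, from 58 and 72.5 to 99.2 and 100.5 CPM, by 0.62 (± 0.17, edgeR adjusted p = 0.0115). After knockout the changes were 0.69 in RNA (edgeR adjusted p = 0.116) and 0.43 in footprints (edgeR adjusted p = 0.0646). The remaining members of this group, *Zmat3* and *Gtse1*, passed no test, with log2 fold changes between -0.67 and 0.27 against WT-shSCR. The 20 proliferation genes, of which 18 were called higher in RNA in each comparison with WT-shSCR, moved in the same direction as *Ckap2*, and their part in its rise was not tested.

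The cell death group of 14 genes showed few calls in RNA and more in footprints. After knockout 1 of 13 tested was called lower in RNA, *Tnfrsf10b*, and 8 of 14 in footprints, against 3.99% and 8.95% of all genes tested. The median log2 fold change of the group was -0.45 in RNA and -1.15 in footprints. In libraries labelled WT-shARF, 2 of 14 were called lower in RNA, *Bax* and *Perp*, and 4 of 14 in footprints. The shares of all genes tested were 4.17% and 5.5%. Several of these genes had low RNA levels, such as *Pmaip1*, *Fas*, *Perp* and *Trp53inp1*, at 4.89 to 20.6 CPM in WT-shSCR.

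*Pmaip1* and *Bax* act at the mitochondrion, where NOXA, the product of *Pmaip1*, blocks prosurvival proteins and BAX forms the pore. *Pmaip1* RNA was 9.41 and 20.6 CPM in WT-shSCR, 12.3 and 12.2 CPM in libraries labelled WT-shARF and 3.64 and 6.01 CPM in *Arf*-/--shSCR MEFs. *Pmaip1* footprints were 77.7 and 67.4, 45.8 and 32.9, and 19.6 and 21.5 CPM in the same order, with no overlap between any of the groups. Footprints fell with a log2 fold change of -1.81 after knockout (± 0.20, edgeR adjusted p = 2.52e-08) and -0.90 in libraries labelled WT-shARF (± 0.20, edgeR adjusted p = 0.00257), while the RNA change after knockout, -1.59 (standard error 0.52), did not pass the test (edgeR adjusted p = 0.0671). *Bax* RNA averaged 241.8 CPM in WT-shSCR (SD 11.7, 2 replicates) and was 151.7 and 152.8 CPM in libraries labelled WT-shARF and 160.9 and 188.1 CPM in *Arf*-/--shSCR MEFs, and *Bax* footprints were 136.3 and 148.6, 124.1 and 110.4, and 114.5 and 90.3 CPM. *Bax* was lower than the control in both groups and both assays. It was called in RNA in libraries labelled WT-shARF (-0.67 ± 0.14, edgeR adjusted p = 0.00247) and in footprints after knockout (-0.46 ± 0.14, edgeR adjusted p = 0.0198). The other 2 tests gave -0.47 (edgeR adjusted p = 0.0688) for RNA after knockout and -0.28 (edgeR adjusted p = 0.191) for footprints in libraries labelled WT-shARF. The *Bax* coding sequence overlaps that of *Gm45808* on the same strand, so its counts are uncertain.

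Of the receptors at the cell surface, *Tnfrsf10b*, a receptor for the death ligand TRAIL, was the best measured. *Tnfrsf10b* RNA was 54.2 and 71.6 CPM in WT-shSCR, 42.3 and 37 CPM in libraries labelled WT-shARF and 26.2 and 25.8 CPM in *Arf*-/--shSCR MEFs. *Tnfrsf10b* footprints were 103.2 and 108.8, 70.4 and 56.1, and 55.6 and 50.8 CPM, so the groups kept the same order in both assays without overlap. After knockout the log2 fold change was -1.26 in RNA (± 0.24, edgeR adjusted p = 0.00226) and -0.98 in footprints (± 0.15, edgeR adjusted p = 1.54e-05). Libraries labelled WT-shARF gave -0.75 in footprints (± 0.16, edgeR adjusted p = 0.00181) and -0.67 in RNA, just outside the threshold (± 0.21, edgeR adjusted p = 0.0517).

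*Fas*, the receptor for Fas ligand, and *Eda2r*, a receptor for ectodysplasin A2, passed the test in footprints after knockout and in no other comparison with WT-shSCR. *Fas* footprints were 10.5 and 14.6 CPM in WT-shSCR, 7.94 and 4.35 CPM in libraries labelled WT-shARF and 4.23 and 5.61 CPM in *Arf*-/--shSCR MEFs, with a knockout log2 fold change of -1.33 (± 0.47, edgeR adjusted p = 0.0473). *Eda2r* footprints were 24.9 and 18.9, 22.4 and 15.7, and 10.4 and 5.61 CPM, with a knockout log2 fold change of -1.44 (± 0.37, edgeR adjusted p = 0.0051). The *Fas* call was lost with DESeq2, with no filter, with all groups in one fit and when any 1 of the 4 libraries was left out. RNA replicates were far apart for *Fas* in the knockout and for *Eda2r* in the control. *Fas* RNA was 7.91 and 5.16 CPM in WT-shSCR and 13.5 and 3.01 CPM in *Arf*-/--shSCR MEFs, and *Eda2r* RNA was 24.8 and 5.16 CPM in WT-shSCR and 13.5 and 13.3 CPM in *Arf*-/--shSCR MEFs.

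*Perp*, which encodes a membrane protein of desmosomes and a p53 effector in cell death, had the largest fall in footprints of any member in both comparisons. *Perp* footprints were 25.2 and 14.6 CPM in WT-shSCR, 3.25 and 3.31 CPM in libraries labelled WT-shARF and 2.12 and 3.29 CPM in *Arf*-/--shSCR MEFs. The log2 fold change was -2.86 after knockout (± 0.47, edgeR adjusted p = 2.5e-05) and -2.59 in libraries labelled WT-shARF (± 0.48, edgeR adjusted p = 0.000233). *Perp* RNA was 4.89 and 11.6, 0.536 and 2.34, and 2.55 and 2.15 CPM, and was called lower in libraries labelled WT-shARF (-2.18 ± 0.69, edgeR adjusted p = 0.0493). The RNA call was lost when any 1 of the 4 libraries was left out.

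*Trp53inp1*, a stress protein of the nucleus and autophagosomes, showed a similar pattern. *Trp53inp1* footprints were 22.3 and 19.7 CPM in WT-shSCR, 8.3 and 4.97 CPM in libraries labelled WT-shARF and 4.23 and 7.54 CPM in *Arf*-/--shSCR MEFs. The log2 fold change was -1.82 after knockout (± 0.39, edgeR adjusted p = 0.000901) and -1.70 in libraries labelled WT-shARF (± 0.41, edgeR adjusted p = 0.00473). *Trp53inp1* RNA was 9.04 and 9.03, 6.97 and 7.26, and 4.73 and 6.01 CPM, and passed no test. *Phlda3*, an inhibitor of AKT, had 193.1 and 161.6 CPM of footprints in WT-shSCR, 163.4 and 184.4 CPM in libraries labelled WT-shARF and 111.2 and 110.0 CPM in *Arf*-/--shSCR MEFs. Only the knockout stood apart, with a log2 fold change of -0.67 (± 0.13, edgeR adjusted p = 0.000306) against -0.02 (edgeR adjusted p = 0.943) in libraries labelled WT-shARF. *Phlda3* RNA was 123.1 and 103.2 CPM in WT-shSCR and 70.3 and 114.2 CPM in *Arf*-/--shSCR MEFs, where the groups overlapped.

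The other cell death genes passed no test against WT-shSCR. *Bbc3*, which encodes PUMA, had 2.55 to 6.02 CPM of RNA over all libraries and was left out of the knockout test of RNA as too low. *Apaf1*, the scaffold of the apoptosome, *Aen*, a nuclease of apoptotic cells, *Ei24*, a protein of the endoplasmic reticulum, and *Siva1*, a proapoptotic adaptor, had log2 fold changes between -0.51 and 0.25 in both assays. *Cyfip2* RNA was 9.04 and 9.68 CPM in WT-shSCR and 1.46 and 3.44 CPM in *Arf*-/--shSCR MEFs, a change on the log2 scale of -1.94 with a standard error of 0.62 (edgeR adjusted p = 0.0605).

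Genes of DNA repair and nucleotide supply held 1 call in the comparisons with WT-shSCR, in RNA after knockout. Of all genes tested, 3.99% were called lower there. *Polk*, a polymerase that copies past DNA lesions, had 32.8 and 25.8 CPM of RNA in WT-shSCR, 24.7 and 22 CPM in libraries labelled WT-shARF and 16.4 and 10.3 CPM in *Arf*-/--shSCR MEFs. Its RNA fell after knockout, with a log2 fold change of -1.13 (± 0.34, edgeR adjusted p = 0.0431), and its footprints, 30.2 and 37.8 CPM in WT-shSCR and 23.7 and 18 CPM in *Arf*-/--shSCR MEFs, changed by -0.69 (± 0.26, edgeR adjusted p = 0.0577). *Xpc*, which recognises damage in nucleotide excision repair, *Ercc5*, an endonuclease of the same pathway, and *Rrm2b*, a ribonucleotide reductase subunit, had log2 fold changes between -1.09 and 0.46 in the 2 assays and passed no test. *Ddb2*, another damage recognition gene, was the one member too low for every test, at 0 to 2.55 CPM, so no change of it was detectable at this depth.

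In the group of metabolism, stress and secreted factors, 4 of 6 members were called lower in RNA after knockout and 3 of 6 in footprints. The shares of all genes tested were 3.99% and 8.95%. *Ak1*, an adenylate kinase, had 181.5 and 146.4 CPM of RNA in WT-shSCR, 89 and 87.9 CPM in libraries labelled WT-shARF and 57.5 and 66.1 CPM in *Arf*-/--shSCR MEFs. *Ak1* footprints were 162.9 and 160.8, 109.0 and 86, and 64.3 and 60.3 CPM in the same order, and no group overlapped another in either assay. After knockout the log2 fold change was -1.42 in RNA (± 0.19, edgeR adjusted p = 7.91e-05) and -1.36 in footprints (± 0.14, edgeR adjusted p = 8.44e-09). With the WT-shARF label the change was -0.90 in RNA (± 0.16, edgeR adjusted p = 0.00048) and -0.74 in footprints (± 0.14, edgeR adjusted p = 0.000299).

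*Ephx1*, a microsomal epoxide hydrolase, had 121.6 and 119.3 CPM of RNA in WT-shSCR, 78.8 and 91.8 CPM in libraries labelled WT-shARF and 52.4 and 61 CPM in *Arf*-/--shSCR MEFs. *Ephx1* footprints were 127.2 and 126.1, 85.5 and 102.5, and 67.3 and 52.6 CPM in the same order, again without overlap. It fell after knockout, with a log2 fold change of -1.09 in RNA (± 0.19, edgeR adjusted p = 0.00111) and -1.07 in footprints (± 0.15, edgeR adjusted p = 3.68e-06). The values in libraries labelled WT-shARF were -0.49 (edgeR adjusted p = 0.0699) and -0.42 (edgeR adjusted p = 0.056).

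*Dcxr*, a carbonyl reductase of sugar metabolism, had 41.4 and 25.8 CPM of RNA in WT-shSCR, 20.4 and 13.1 CPM in libraries labelled WT-shARF and 7.28 and 14.2 CPM in *Arf*-/--shSCR MEFs. *Dcxr* footprints were 29.8 and 26, 14.4 and 16, and 15.6 and 11.6 CPM in the same order. Both groups were below the control and overlapped each other. After knockout *Dcxr* fell with a log2 fold change of -1.69 in RNA (± 0.37, edgeR adjusted p = 0.00667) and -1.03 in footprints (± 0.30, edgeR adjusted p = 0.0129). *Dcxr* RNA in libraries labelled WT-shARF fell by -1.10 (± 0.30, edgeR adjusted p = 0.0224), and the footprint change was -0.87 (edgeR adjusted p = 0.0636). The RNA call under that label was lost with DESeq2 and with all groups in one fit.

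*Rps27l*, a close paralog of the ribosomal protein gene *Rps27*, with which it may share reads, was the most abundant member per length in WT-shSCR RNA, at 1013.5 CPM per kb of coding sequence, where *Bax* came next at 393.7 and *Ddb2* last at 0.291. *Rps27l* RNA was 351.7 and 319.3 CPM in WT-shSCR, 247.6 and 269.0 CPM in libraries labelled WT-shARF and 251.6 and 213.8 CPM in *Arf*-/--shSCR MEFs. It fell after knockout, with a log2 fold change of -0.53 (± 0.15, edgeR adjusted p = 0.0372). *Rps27l* footprints were 284.5 and 249.1, 281.8 and 235.5, and 251.3 and 261.2 CPM and did not follow the RNA, with a knockout change of -0.05 (95% interval -0.27 to 0.17). *Sesn1*, a sestrin of nutrient signalling, and *Gdf15*, a secreted stress cytokine, were at 1.58 to 20.6 CPM in both assays and passed no test.

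**Figure D2:**
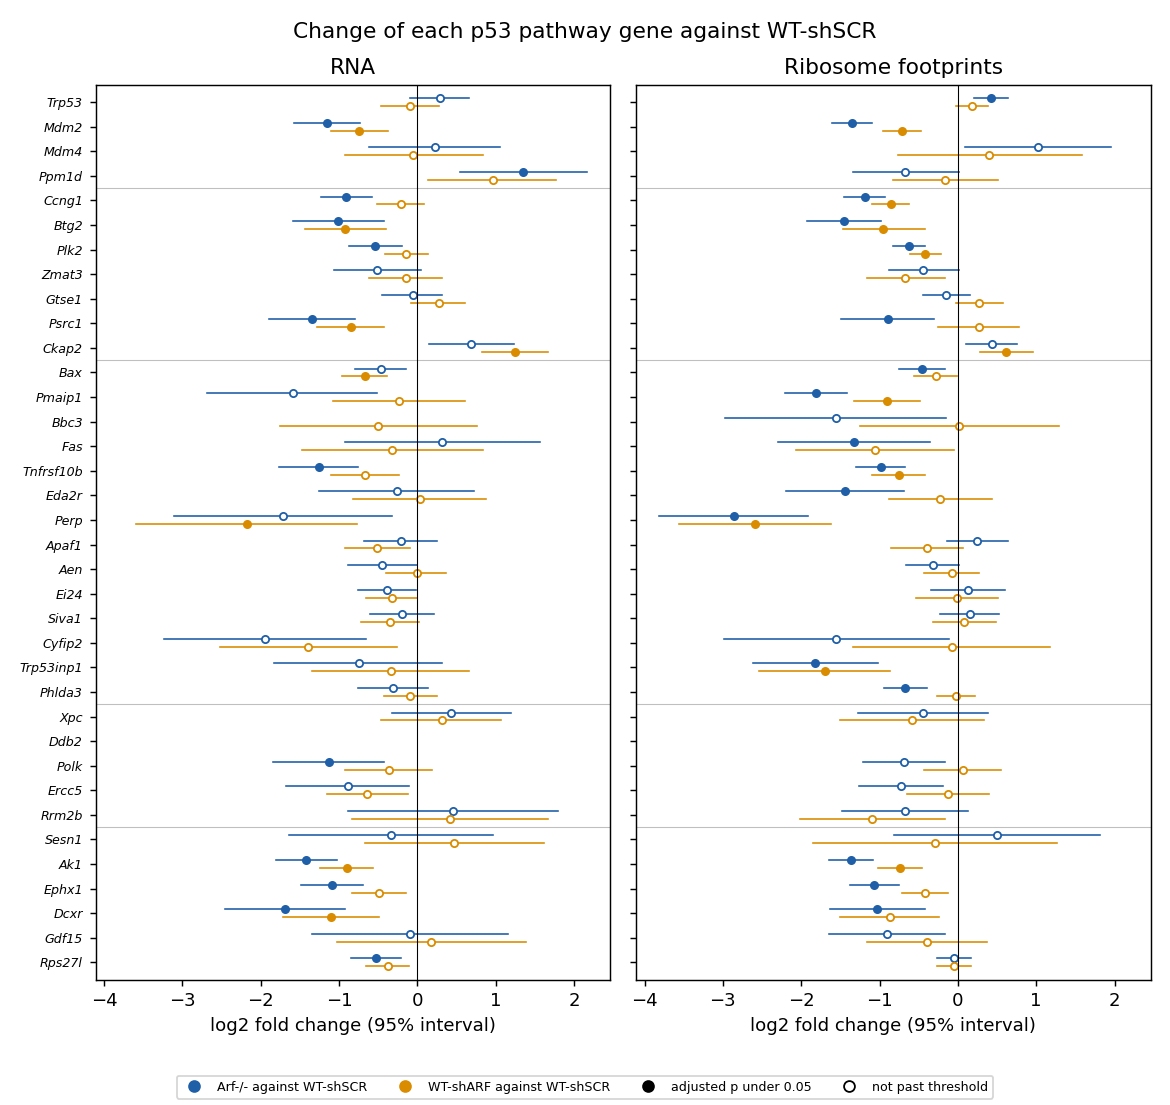
Log2 fold change of each member against WT-shSCR, after knockout (blue) and in libraries labelled WT-shARF (orange), in RNA (left) and ribosome footprints (right), with 95% intervals from edgeR. Filled points passed an adjusted p of 0.05, and Ddb2 was too low to test. Filled blue points lie left of 0 for 11 members in RNA and 16 in footprints.

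Calls after knockout rested on the control libraries. Without WT-shSCR replicate 1 or 2, fewer members were called lower in RNA, and fewer of all genes tested were called. The median log2 fold change of members in RNA then stayed within -0.55 to -0.46. In footprints all calls, of members and of other genes, were lost without either replicate. The footprint median of members stayed within -0.75 to -0.67 with single libraries left out. *Mdm2*, *Ak1* and *Ephx1* kept their RNA call after knockout with any 1 of the 4 libraries left out, and DESeq2 also called them. DESeq2 called 7 members lower in RNA after knockout, without *Btg2*, *Plk2*, *Polk* and *Rps27l*, and did not call the rise of *Ppm1d*. It called 13 lower in footprints, without *Bax*, *Fas* and *Psrc1*. In libraries labelled WT-shARF DESeq2 called 3 lower in RNA, without *Btg2*, *Dcxr*, *Perp* and *Psrc1*. In footprints it called 7 lower there, without *Btg2* and *Perp*. DESeq2 called fewer of all genes too. In RNA and footprints after knockout it called 467 and 1305 genes in either direction, against 845 and 1988 by edgeR. In libraries labelled WT-shARF it called 318 and 789, against 765 and 1147. With all groups in one fit, *Btg2*, *Dcxr* and *Perp* lost their RNA calls in libraries labelled WT-shARF. Under that label, fewer members were called lower in RNA without WT-shARF replicate 1 or 2, and in footprints without replicate 2. In these fits fewer of all genes tested were called as well.

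The falls were then compared directly, which asked whether knockout and the libraries labelled WT-shARF differed in size without the shared controls. In RNA, 1 of 32 members tested was called lower in *Arf*-/--shSCR MEFs and 0 higher, against 1.19% and 1.38% of 10632 genes. At an unadjusted p under 0.05 these numbers were 10 and 1 (edgeR), a level at which the share of all genes was not counted. DESeq2 called the same 1 and 0, with 193 of all genes called in either direction. The called member was *Ccng1*, whose RNA was lower in the knockout by a log2 difference of -0.70 (± 0.15, edgeR adjusted p = 0.0278). *Bbc3*, *Perp*, *Cyfip2* and *Ddb2* were too low for this test, and the median log2 difference over the 32 members was -0.33, with 23 below 0. The groups did not overlap for 14 members lower in the knockout and 4 higher, against 23.6% and 23.6% of genes.

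In footprints, 7 of 35 members were called lower in *Arf*-/--shSCR MEFs than in libraries labelled WT-shARF and 1 higher, against 4.3% and 3.93% of 10941 genes. Lower were *Mdm2* (log2 difference -0.65 ± 0.13, edgeR adjusted p = 0.00348), *Psrc1* (-1.16 ± 0.24, edgeR adjusted p = 0.00462) and *Phlda3* (-0.65 ± 0.11, edgeR adjusted p = 0.00125). *Pmaip1* (-0.92), *Eda2r* (-1.23), *Ak1* (-0.63) and *Ephx1* (-0.65) were lower as well, with standard errors of 0.22, 0.37, 0.15 and 0.16 and adjusted p of 0.0158, 0.0454, 0.0133 and 0.0149 (edgeR). *Apaf1* footprints were higher in the knockout, at 47.3 and 55.1 CPM against 36.8 and 30 CPM, a log2 difference of 0.63 (± 0.18, edgeR adjusted p = 0.0382). DESeq2 did not call *Eda2r* or *Apaf1*.

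For the other members the difference in footprints did not pass the test. At an unadjusted p under 0.05 (edgeR), 14 of all 35 members were lower in the knockout and 2 higher. The share of all genes was not counted at that level, so these counts cannot be set beside the shares given above. The log2 difference of footprints was -0.28 for *Perp* (95% interval -1.68 to 1.13), -0.13 for *Trp53inp1* (-1.21 to 0.94), -0.23 for *Tnfrsf10b* (-0.58 to 0.12) and -0.52 for *Btg2* (-1.12 to 0.09). For *Ccng1* and *Plk2* it was -0.34 (-0.62 to -0.07) and -0.22 (-0.41 to -0.03), with adjusted p of 0.127 and 0.172 (edgeR). The median over 35 members was -0.27, with 26 below 0, and the groups did not overlap for 18 members lower in the knockout and 4 higher, against 25.1% and 25.2% of genes. Without WT-shARF footprint replicate 1 or 2 no member was called, and nearly none of all genes tested. Without WT-shARF RNA replicate 1 or 2 *Ccng1* was not called, and far fewer of all genes were. With single libraries left out, the member median stayed within -0.37 to -0.23 in footprints and -0.43 to -0.18 in RNA. Marker lists separated these groups too. In footprints of the knockout 12 of 15 macrophage markers tested and 8 of 16 fibroblast markers were called lower, and 7 of 8 epithelial or mesothelial markers, 2 of 16 fibroblast markers and 3 of 20 proliferation genes were called higher. Their part in the differences was not tested.

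**Figure D3:**
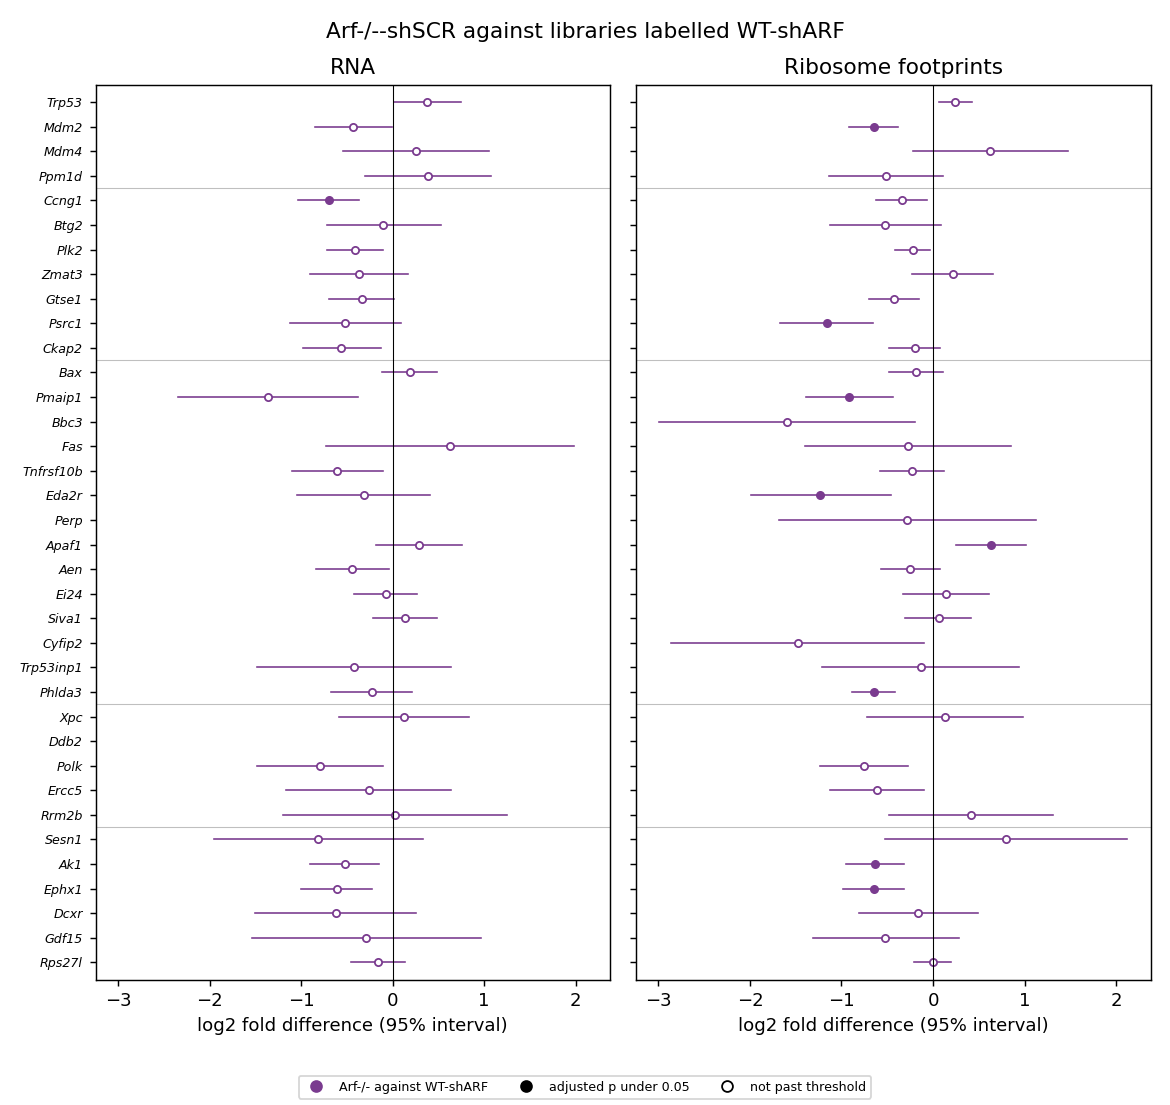
Log2 difference of each member between Arf-/--shSCR MEFs and the libraries labelled WT-shARF, in RNA (left) and ribosome footprints (right), with 95% intervals from edgeR and filled points for an adjusted p under 0.05. Ccng1 is the filled point in RNA, and in footprints 7 filled points lie left of 0 and Apaf1 lies right of it.

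Translation efficiency (TE), the footprint level relative to the RNA level, separates a change in ribosome loading from a change in mRNA. In WT-shSCR the log2 TE of the 35 members tested had a median of 0.08 and ran from -1.96 for *Ei24* to 2.33 for *Pmaip1*, where the median of 11314 genes was -0.08. *Trp53*, at 1.28 and 1.13 in the WT-shSCR replicates, was above 92.3% of genes. *Mdm2*, at 1.03 and 0.95, was above 88.7%. *Ei24*, at -1.84 and -2.07, was above 6.93%, and *Psrc1*, at -1.43 and -0.96, above 14%.

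No member was called for a change of TE in any comparison. After knockout 0.106% of 11314 genes were called lower and 0.0884% higher, and in libraries labelled WT-shARF 0% and 0.0354% of 11289. In the direct comparison 0.0258% and 0.0172% of 11632 genes were called. At an unadjusted p under 0.05 (edgeR), 2 members were lower and 1 higher after knockout. In libraries labelled WT-shARF these were 4 and 2, and in the direct comparison 0 and 0. The share of all genes at that level was not counted. DESeq2 called no member either, and 75, 50 and 18 of all genes in the same order. The median log2 change of TE over 35 members was -0.02 after knockout and 0.02 in libraries labelled WT-shARF.

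*Ppm1d* had the smallest p of the members for TE after knockout. The log2 change was -2.05 (standard error 0.49, unadjusted p = 0.000409, adjusted p = 0.118, edgeR), and it was called with no filter on low counts and without *Arf*-/--shSCR RNAseq replicate 2. *Ccng1* and *Psrc1* had the smallest p in libraries labelled WT-shARF, with log2 changes of TE of -0.63 (standard error 0.19) and 1.13 (standard error 0.33) and adjusted p of 0.332 and 0.305 (edgeR). The change of *Mdm2* TE after knockout was -0.22 (95% interval -0.69 to 0.24) and that of *Rps27l* 0.45 (0.08 to 0.83, adjusted p = 0.587, edgeR). Standard errors of the TE changes after knockout ran from 0.18 for *Rps27l* to 1.03 for *Cyfip2*, with a median of 0.36, against 0.26 for RNA and 0.23 for footprints. Changes of TE smaller than these intervals were not detectable at this depth.

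**Figure D4:**
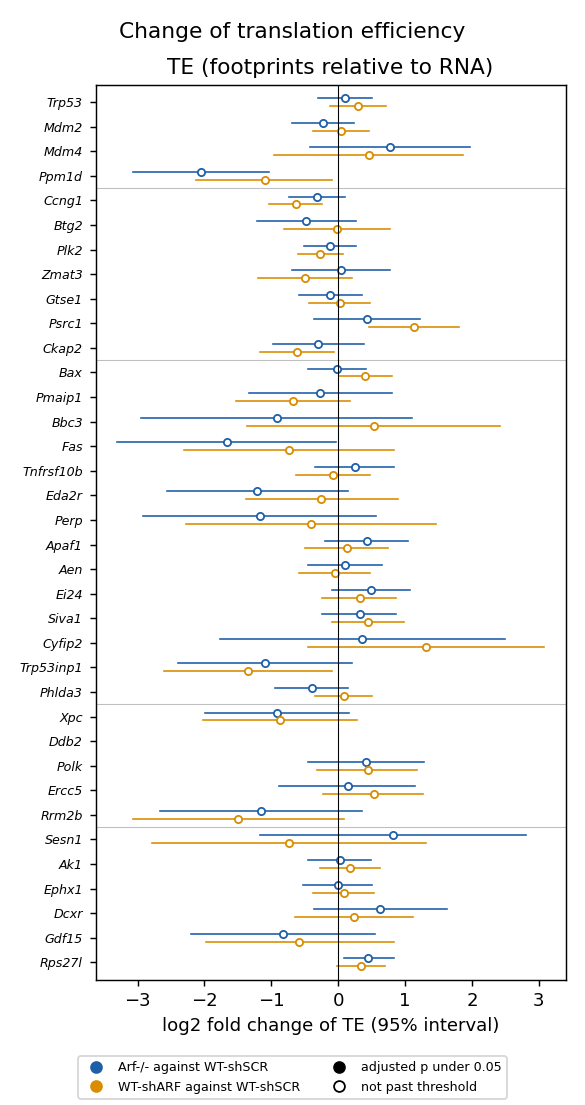
Log2 fold change of TE (ribosome footprints relative to RNA) for each member after knockout (blue) and in libraries labelled WT-shARF (orange), with 95% intervals from edgeR. All points are open, as no member passed an adjusted p of 0.05, and Ppm1d lies furthest left after knockout at -2.05.

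RNA and footprints come from separate libraries, and the signs of the changes could be set side by side. After knockout 23 of the 34 members tested in both were below 0 in both assays and 3 above 0 in both, so 76.5% had the same sign, against 70.9% of 10012 genes. In libraries labelled WT-shARF the share was 65.7% of 35 members, against 67.3% of 9775 genes. Across genes Pearson's r between the RNA and the footprint change after knockout was 0.60 over the 34 members and 0.63 over all genes. It is given as a description, since genes are not independent replicates.

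Beyond the 36 members, 51 further genes of the pathway were listed, the kinases and regulators upstream of p53, *Cdkn1a* and other targets, and 50 of them were matched in the files. After knockout RNA of 6 of 46 tested was called lower and of 0 higher, with 3.99% and 3.94% of all genes as above. *Cdkn1a*, which encodes the cell cycle inhibitor p21, was 119.4 and 136.1 CPM in WT-shSCR, 96.5 and 61.2 CPM in libraries labelled WT-shARF and 24.4 and 32.2 CPM in *Arf*-/--shSCR MEFs. Its RNA fell with a log2 fold change of -2.18 after knockout (± 0.22, edgeR adjusted p = 3.78e-06) and -0.73 in libraries labelled WT-shARF (± 0.19, edgeR adjusted p = 0.0142). The direct log2 difference was -1.46 (± 0.25, edgeR adjusted p = 0.00664), and in footprints -1.20 (± 0.10, edgeR adjusted p = 1.44e-07). The RNA call under the WT-shARF label was lost with DESeq2, with all groups in one fit and without WT-shARF replicate 2, and the direct calls in both assays were lost without either WT-shARF replicate.

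The other 5 called lower in RNA after knockout were *Ptp4a3* (log2 fold change -1.68), *Abhd4* (-1.60), *Sesn2*, a sestrin (-1.09), *Hipk2*, a kinase of p53 (-0.96), and *Thbs1*, which encodes thrombospondin 1 (-0.57). In libraries labelled WT-shARF 3 of 44 were called lower, *Abhd4* (-1.11), *Cdkn1a* and *Shisa5* (-0.63), and in the direct comparison 3 of 45, *Cdkn1a*, *Sesn2* (-1.07) and *Thbs1* (-0.67), where 4.17% and 1.19% of all genes were called lower. None was called higher in these 2 comparisons of RNA. DESeq2 did not call *Ptp4a3*, *Hipk2* or *Sesn2* after knockout, *Shisa5* under the WT-shARF label or *Sesn2* in the direct comparison. In footprints after knockout, 9 of 47 were called lower and 8 higher, against 8.95% and 9.57% of all genes. The 8 were *Atr* and *Chek1*, kinases of the DNA damage checkpoint, *Usp7*, a deubiquitinase of p53 and MDM2, the ribosomal protein genes *Rpl5*, *Rpl11* and *Rpl23*, whose products bind MDM2, *Gpx1* and *Pcna*, with log2 fold changes from 0.35 for *Pcna* to 1.20 for *Chek1*. The names of these 8 were given after their values were seen. No gene of this list was called for TE in any comparison by edgeR, which called 0.106% and 0.0884% of all genes after knockout. The study tested TE with DESeq2 and reported a general rise for mRNAs with a 5′-terminal oligopyrimidine motif. *Rpl5*, *Rpl11* and *Rpl23* are on its list of these mRNAs, and that set was not tested here.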

How the data were processed

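The authors clipped adapters and barcodes, discarded rRNA and noncoding reads, mapped what remained with TopHat (mm10), counted reads on coding sequences with HTSeq and deposited raw counts per gene. The submitters' processing notes also name UMI-tools, cutadapt and Bowtie2, and a removal of duplicates by molecular identifier is not given in the sources used here, so intervals treat PCR copies as separate molecules. Rows that name no gene held 94.7% to 96.8% of the RNAseq and 57.1% to 64.8% of the ribosome profiling total and were left out. Alignments that were not unique made up most of these, so reads shared between copies of a gene were not counted.

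From the deposited counts, edgeR 4.0.16 (R 4.3.3) computed TMM factors, filterByExpr filters and quasi-likelihood F tests, over the 4 libraries compared for RNA and footprints, and over 8 for TE, tested as an assay by condition interaction. p-values were Benjamini-Hochberg adjusted over all genes tested, at a threshold of 0.05. CPM was computed over the 6 libraries of each assay, and log2 TE with 0.5 CPM added. Alternatives were DESeq2 1.42.0, RLE and upper quartile factors, other filters and thresholds, 1 fit for all groups, replicate and culture blocks, and each library left out. Scripts were tested on simulated data first. With 2 replicates against 2, the smallest exact permutation p is 0.33, so each call depends on edgeR's moderated dispersion.

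The members, roles and lists were chosen with earlier results of these data known. Every member called in any comparison was given with its values, *Trp53*, *Mdm2*, *Mdm4* and *Ppm1d* always, and the others by range. Of the further pathway genes, up to 8 called in RNA were named per comparison by size of change. Gene positions are from GENCODE M21 (GRCm38, which mm10 names), promoters from RefSeq GRCm38.p6.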

Additional observations from a re-analysis of the deposited data

How the results depend on the processing

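Depth limited the low genes most, and 2 replicates per group made the calls depend on single libraries, while the medians kept their sign in RNA and footprints. The cause of each change below was not tested. RLE and upper quartile factors moved no count of calls by more than 1.5 times. Shares of all genes were not counted at the other thresholds that follow. At an adjusted p under 0.01, members called lower and higher were 7 and 0 in RNA after knockout, 3 lower in RNA of the libraries labelled WT-shARF, 0 lower in RNA of the direct comparison, 0 higher in footprints of the libraries labelled WT-shARF, and 3 lower and 0 higher in footprints of the direct comparison. At 0.1, with no filter, with at least 10 counts in every library and with the replicate block, 2 members were called higher in footprints after knockout, and with no filter 1 was called lower in TE after knockout. DESeq2 called 7 lower and 0 higher in RNA after knockout, 3 lower in RNA of the libraries labelled WT-shARF and 0 higher in footprints of the direct comparison. Of all genes it called 467, 318 and 667 in the same order, against 845, 765 and 900 by edgeR. With all groups in one fit, 4 were called lower in RNA of the libraries labelled WT-shARF and 0 higher in footprints of the direct comparison. That fit called 497 and 831 of all genes there.

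With each library left out in turn, where the lone sample is assumed to vary like the other group, members called lower and higher after knockout ranged from 4 to 12 and 0 to 2 in RNA (median -0.55 to -0.46) and 0 to 14 and 0 to 1 in footprints (median -0.75 to -0.67). In the libraries labelled WT-shARF 1 to 6 were called lower in RNA (median -0.43 to -0.25), and 4 to 9 lower and 0 to 1 higher in footprints (median -0.45 to -0.20). In the direct comparison 0 to 5 were called lower in RNA (median -0.43 to -0.18), and 0 to 9 lower and 0 to 1 higher in footprints. For TE after knockout 0 to 1 were called lower (median -0.13 to 0.10). Uncalled values changed sign for *Trp53* RNA in the libraries labelled WT-shARF (-0.30 to 0.12), *Trp53* TE after knockout (-0.01 to 0.25), *Trp53* TE in the direct comparison (-0.34 to 0.07) and *Mdm2* TE in the libraries labelled WT-shARF (-0.04 to 0.11).

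Replicate numbers are shared between the groups in the labels, but same-numbered libraries did not deviate together (r from -0.0305 to 0.0255 between groups of one assay). A fit with the replicate block called 11 members lower in RNA after knockout, where *Plk2* and *Rps27l* were lost and *Ercc5* and *Pmaip1* gained. It called 16 lower in footprints after knockout, 10 and 11 in the libraries labelled WT-shARF and 1 and 9 in the direct comparison. Of all genes, in RNA and footprints, it called 827 and 2075 after knockout. The same counts were 1011 and 1376 in the libraries labelled WT-shARF and 188 and 1109 in the direct comparison.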
